A study of Mus musculus with 12 samples.

Results

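Glycolysis splits glucose into pyruvate, and the genes described here cover glucose uptake, the glycolytic enzymes, their allosteric control, and the fate of pyruvate as lactate or as fuel for mitochondria. The set held 38 named genes: glucose transporters (Slc2a1, Slc2a3, Slc2a4), hexokinases (Hk1 to Hk3), enzymes of the upper and lower pathway, the Pfkfb enzymes that set fructose 2,6-bisphosphate, lactate dehydrogenases, pyruvate dehydrogenase subunits and kinases, monocarboxylate transporters and fructose bisphosphatases. Members were chosen by symbol, and a gene with several probe sets was read from the probe set with the highest mean. Of the 38 members, 34 had a probe set annotated to that symbol alone, out of 19938 such genes on the array, and 30 passed the filter on dim genes, out of 13044. RNA from 12 mouse cell samples was hybridised, 1 array each. MBD3flox/- (flox/-) cells with a doxycycline (DOX)-inducible OSKM cassette, which encodes Oct4, Sox2, Klf4 and Myc, were profiled as embryonic fibroblasts (MEF), on days 4 and 8 of DOX and as induced pluripotent stem cells (iPSC). MBD3+/+ (WT) cells with the same inducible cassette were profiled as MEF, on days 4, 8 and 11 of DOX and as iPSC. MBD3-/- (-/-) MEF and embryonic stem cells (ESC) and the WT V6.5 ESC have no OSKM transgene named in their labels. The state groups are thus 5 DOX arrays, 4 pluripotent arrays (2 iPSC, 2 ESC) and 3 MEF arrays. A floxed and a null Mbd3 copy leave flox/- cells with an uncut allele, and no label gives clones, litters or separate cultures, so p-values measure the spread between these arrays.

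Many steps of glycolysis can be run by several paralogs, and cells exchange one for another. High-affinity glucose uptake by GLUT3 (Slc2a3) is typical of neurons and the early embryo, lactate is made by LDHA-rich and used by LDHB-rich enzyme, and lactate leaves hypoxic or glycolytic cells through MCT4 (Slc16a3). Hypoxia-inducible factors switch on many of these genes through a short core, ACGTG or GCGTG, and Myc proteins bind the E-box CACGTG. Pluripotent cells are known for a high use of glucose, and a shift toward glycolysis is known from the making of iPSC.

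The growth protocol gives irradiated DR4 feeder MEF and ESC medium with 2i and LIF for every sample. The share of feeder RNA was not tested, and bulk RNA cannot tell fewer cells of a type from less RNA per cell. The mean log2 signal of 12 pluripotency markers was 11.01 to 11.05 in pluripotent arrays against 5.47 to 5.66 in MEF. Among DOX arrays it was 7.26 on flox/- day 4, 11.07 on flox/- day 8, 6.48 on WT day 4, 6.54 on WT day 8 and 10.56 on WT day 11. The 12 fibroblast markers averaged 6.81 to 10.66 in DOX arrays, 6.93 (flox/- iPSC) to 9.16 (WT ESC) in pluripotent arrays and 11.53 to 11.70 in MEF. The macrophage list ran from 6.99 in -/- MEF to 10.15 in WT MEF, so MEF arrays differed in macrophage marker signal. Mbd3 itself had a log2 signal of 6.73 in -/- ESC and 8.15 in -/- MEF, below the other 10 arrays. Both the WT ESC array and the WT day 8 array come from an earlier series. The source name of WT day 8 gives 4 days, while its title and stage give 8. That array and flox/- day 8 had the lowest mean correlation with the other DOX arrays, 0.813 for WT day 8 and 0.823 for flox/- day 8 over 13044 genes. Calls that changed when either one was left out are given below, some only as counts.

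Of the 8 members without a test, Gpi1, Pfkfb1 and Eno1 had no probe set of a single symbol. Gapdh, the triose phosphate dehydrogenase, was covered by 25 probe sets shared with other symbols, which read 13.13 to 13.69 and moved by at most 0.143 over the 12 arrays, near the top of the scale. Hk3, Pgam2 (the muscle mutase), Pklr (the liver and red cell pyruvate kinase) and Fbp1 stayed below the array median on every array. The highest of their log2 signals were 5.55 for Hk3, 6.03 for Pgam2, 6.06 for Pklr and 5.25 for Fbp1. Slc2a4, the insulin-responsive transporter, and Fbp2, the muscle bisphosphatase, passed the filter on 2 arrays each. The Pkm probe set reads the gene and does not separate its M1 and M2 splice forms.

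The promoters of the 3 paralog pairs with the largest exchange and both members in the RefSeq promoter table (GRCm38.p6) are shown first, since the pairs stand side by side in all that follows. Each sequence is the 250 bases before the start site, 5′ to 3′ on the gene's strand, and the capitals mark the motifs named above on either strand.

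Slc16a3 (chr11:120948817-120949066, GRCm38.p6, plus strand): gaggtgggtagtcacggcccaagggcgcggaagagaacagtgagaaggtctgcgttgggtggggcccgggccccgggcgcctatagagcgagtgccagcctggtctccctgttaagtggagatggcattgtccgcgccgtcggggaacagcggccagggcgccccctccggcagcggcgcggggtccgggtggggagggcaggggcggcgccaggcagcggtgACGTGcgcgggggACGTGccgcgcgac
Slc16a1 (chr3:104638414-104638663, GRCm38.p6, plus strand): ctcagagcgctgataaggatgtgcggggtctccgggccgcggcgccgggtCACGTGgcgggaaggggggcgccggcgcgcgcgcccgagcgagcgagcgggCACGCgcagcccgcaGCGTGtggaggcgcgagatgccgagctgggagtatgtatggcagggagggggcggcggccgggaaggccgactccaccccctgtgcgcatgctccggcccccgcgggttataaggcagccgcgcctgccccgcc

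Pfkp (chr13:6648772-6649021, GRCm38.p6, minus strand): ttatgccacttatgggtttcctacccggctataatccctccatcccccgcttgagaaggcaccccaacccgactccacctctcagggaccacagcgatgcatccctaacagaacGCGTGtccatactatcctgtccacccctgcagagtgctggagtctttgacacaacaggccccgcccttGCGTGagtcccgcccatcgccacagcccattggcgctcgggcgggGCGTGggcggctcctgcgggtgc
Pfkl (chr10:78009808-78010057, GRCm38.p6, minus strand): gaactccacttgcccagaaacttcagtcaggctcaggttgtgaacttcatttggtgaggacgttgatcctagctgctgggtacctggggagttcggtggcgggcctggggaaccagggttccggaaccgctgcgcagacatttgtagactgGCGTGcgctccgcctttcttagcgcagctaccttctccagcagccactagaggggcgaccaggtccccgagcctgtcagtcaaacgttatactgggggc

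Ldhb (chr6:142507958-142508207, GRCm38.p6, minus strand): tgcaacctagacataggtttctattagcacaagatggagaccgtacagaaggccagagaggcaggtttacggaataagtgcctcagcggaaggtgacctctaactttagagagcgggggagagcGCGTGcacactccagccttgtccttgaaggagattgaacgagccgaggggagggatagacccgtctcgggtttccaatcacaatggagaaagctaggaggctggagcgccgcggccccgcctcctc
Ldha (chr7:46845554-46845803, GRCm38.p6, plus strand): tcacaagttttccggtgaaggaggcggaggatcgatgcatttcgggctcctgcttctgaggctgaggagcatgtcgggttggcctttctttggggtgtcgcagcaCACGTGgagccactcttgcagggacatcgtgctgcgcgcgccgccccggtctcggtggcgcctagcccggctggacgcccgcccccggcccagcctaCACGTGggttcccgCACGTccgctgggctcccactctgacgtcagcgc

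Slc16a3 held ACGTG at 27 and 14 bases before its start site. The Slc16a1 window held 1 CACGTG at 200 bases before the start, which contains ACGTG on both strands, and GCGTG at 149 and 134 bases. In Pfkp GCGTG stood at 136, 68 and 23 bases, and in Pfkl at 99 bases. Ldhb held 1 GCGTG at 126 bases, whereas the Ldha window held CACGTG at 145 and 48 bases and a further ACGTG at 34 bases. The Slc16a3, Pfkp and Ldha windows lie inside the annotated span of their genes, and a second Ldha start site had 1 GCGTG and neither of the other motifs. Of the 38 members 36 were in the table, with 56 windows. ACGTG on either strand was in 37.5% of member windows and in 16.6% of all 32851 windows of this length, GCGTG in 48.2% against 28.2%, and CACGTG, which is also counted under ACGTG, in 12.5% against 6.02%. Members called higher in pluripotent lines had ACGTG in 4 of 6 windows, and members called lower in 7 of 14. These are letters in a window and show no binding. The promoters of Slc2a3 and Slc2a4 are not shown.

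Set against MEF, pluripotent lines were higher in some paralogs of a step and lower in others. Higher were the transporter Slc2a3 (20.8-fold), the dehydrogenase Ldhb, the hexokinase Hk2, the phosphofructokinase Pfkp, the lactate transporter Slc16a1, the pyruvate dehydrogenase subunit Pdhb and Fbp2. Lower were the lactate exporter Slc16a3 (4.32-fold), Pfkfb3 (3.81-fold), Eno2, Eno3, Tpi1, Pdk2, Pfkl, Pdk3, Ldha, Pgk1 and Pfkfb4. Of the 30 members tested, 18 were called by limma at an adjusted p under 0.05 over all genes, 7 higher and 11 lower. The background was 60.0% of 13044 genes, 30.1% higher and 29.9% lower, so the member share equals that of all genes. The median log2 difference was -0.19 over the members tested and 0.03 over all genes, and 19 members had groups that did not overlap, against 63.2% of all genes. In the 7 fits that each left out 1 array, 15 of the 18 calls always held. Eno2 was lost without flox/- MEF (-1.67, limma adjusted p = 0.0524) or WT MEF (-1.17, limma adjusted p = 0.0633), Slc16a1 without WT MEF (1.26, limma adjusted p = 0.0505), and Fbp2 in 5 of 7 such fits.

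**Figure D1:**
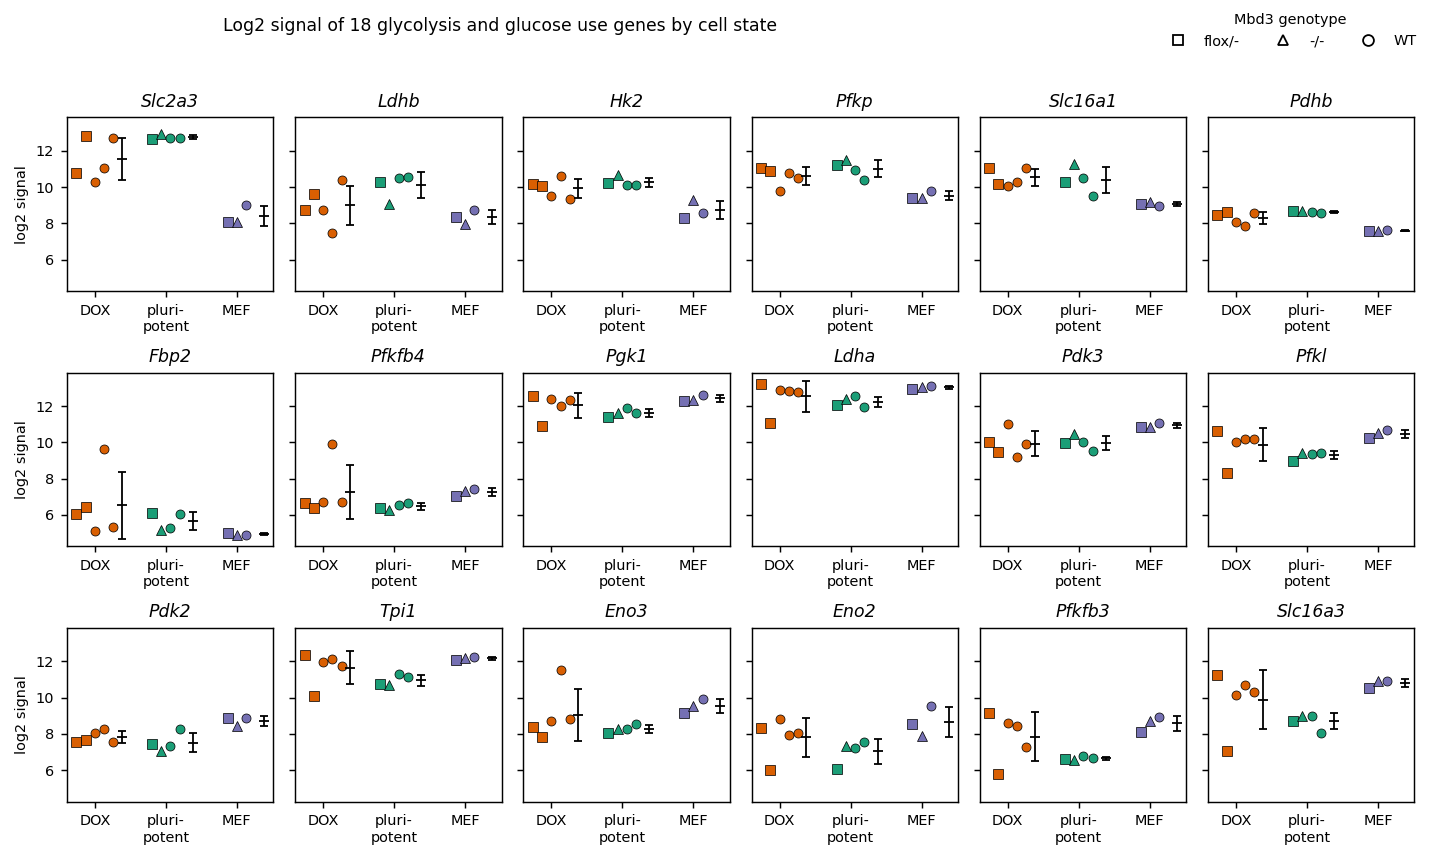
Log2 signal (y axis) of the 18 members called between pluripotent lines and MEF, ordered by that difference, for each array of the DOX, pluripotent and MEF states. Points are arrays, with the marker giving the genotype, and the bar beside each group is the mean ± SD. Slc2a3 sits at 12.65 to 12.95 in pluripotent lines against 8.05 to 9.02 in MEF, and flox/- day 8 is the low DOX point in Slc16a3 at 7.07.

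Among the glucose transporters Slc2a3 was higher in pluripotent lines and under DOX than in MEF, and neither Slc2a1 nor Slc2a4 was called. Under DOX, Slc2a3 read 10.77 on flox/- day 4, 12.81 on flox/- day 8, 10.30 on WT day 4, 11.05 on WT day 8 and 12.73 on WT day 11. Slc2a3 signal in pluripotent lines was 12.65 in flox/- iPSC, 12.95 in -/- ESC, 12.73 in WT iPSC and 12.73 in WT ESC, against 8.08 in flox/- MEF, 8.05 in -/- MEF and 9.02 in WT MEF. All DOX arrays lay above all MEF arrays, with flox/- day 8 and WT day 11 at the level of the lines. Slc2a3 averaged 12.76 ± 0.13 in pluripotent lines (SD, n = 4) and 8.38 ± 0.55 in MEF (SD, n = 3), 20.8-fold higher (log2 difference 4.38 ± 0.24 SE, limma adjusted p = 2.04e-05). DOX-treated cells averaged 11.53 ± 1.16 (SD, n = 5), 8.86-fold above MEF (log2 difference 3.15 ± 0.64 SE, limma adjusted p = 0.0238), a call lost with genotype as a term (limma adjusted p = 0.0963). Slc2a1, which encodes the basal transporter GLUT1, had 11.92 to 13.31 in DOX arrays, 11.94 to 12.23 in pluripotent arrays and 11.71 to 12.18 in MEF. Pluripotent lines and MEF overlapped for Slc2a1 (log2 difference 0.11 ± 0.15 SE, limma adjusted p = 0.558) and its highest array was WT day 8. Slc2a4 stayed between 5.85 and 6.51, near the array median of 6.31.

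Hexokinases trap glucose as glucose 6-phosphate, and Hk2 is the inducible form of muscle and growing cells. Under DOX, Hk2 read 10.15 on flox/- day 4, 10.04 on flox/- day 8, 9.49 on WT day 4, 10.63 on WT day 8 and 9.35 on WT day 11. Hk2 signal in pluripotent lines was 10.22 in flox/- iPSC, 10.65 in -/- ESC, 10.10 in WT iPSC and 10.12 in WT ESC, against 8.32 in flox/- MEF, 9.32 in -/- MEF and 8.57 in WT MEF. Each pluripotent array and each DOX array lay above the highest MEF array, which was the -/- MEF. Hk2 was 2.91-fold higher in pluripotent lines than in MEF (log2 difference 1.54 ± 0.26 SE, limma adjusted p = 0.00160) and did not pass under DOX (log2 difference 1.20 ± 0.35 SE, limma adjusted p = 0.0561). Hk1, the constitutive form, depended on the probe set. The one with the highest mean read 12.38 to 12.68 in DOX arrays, 12.30 to 12.79 in pluripotent arrays and 12.43 to 12.49 in MEF. It links to no RefSeq transcript, and 16 further probe sets shared by Hk1 and Rpl17, a ribosomal protein gene, read 10.88 to 12.89 and moved by at most 0.466 over the 12 arrays. The Hk1 probe set that does link to a RefSeq transcript averaged 9.08 ± 0.14 in pluripotent lines (SD, n = 4) and 9.47 ± 0.03 in MEF (SD, n = 3). By that probe set Hk1 was lower in pluripotent lines (log2 difference -0.39, limma adjusted p = 0.0182), where the other gave 0.06 (limma adjusted p = 0.732). Using RefSeq-linked probe sets was an alternative added after these data were seen.

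Among the subunits of phosphofructokinase, the committed step, the platelet-type Pfkp was higher and the liver-type Pfkl lower in pluripotent lines. Under DOX, Pfkp read 11.05 on flox/- day 4, 10.90 on flox/- day 8, 9.79 on WT day 4, 10.80 on WT day 8 and 10.52 on WT day 11. Pfkp signal in pluripotent lines was 11.24 in flox/- iPSC, 11.52 in -/- ESC, 10.97 in WT iPSC and 10.40 in WT ESC, against 9.39 in flox/- MEF, 9.39 in -/- MEF and 9.81 in WT MEF. WT day 4 overlapped the MEF, and the other DOX arrays and all pluripotent lines lay above them. Pfkp was 2.83-fold higher in pluripotent lines (log2 difference 1.50 ± 0.27 SE, limma adjusted p = 0.00219) and 2.11-fold higher under DOX (log2 difference 1.08 ± 0.30 SE, limma adjusted p = 0.0491). The DOX call of Pfkp was lost without WT day 8 (1.03, limma adjusted p = 0.0544) and without flox/- day 8 (1.01, limma adjusted p = 0.0765). Under DOX, Pfkl read 10.64 on flox/- day 4, 8.30 on flox/- day 8, 10.03 on WT day 4, 10.20 on WT day 8 and 10.17 on WT day 11. Pfkl signal in pluripotent lines was 8.96 in flox/- iPSC, 9.43 in -/- ESC, 9.39 in WT iPSC and 9.42 in WT ESC, against 10.23 in flox/- MEF, 10.50 in -/- MEF and 10.66 in WT MEF. Only flox/- day 8 among the DOX arrays reached the pluripotent range, and it went below it. Pfkl was 2.24-fold lower in pluripotent lines (log2 difference -1.16 ± 0.17 SE, limma adjusted p = 7.95e-04). The muscle-type subunit Pfkm overlapped between the states, with 8.61 to 9.77 in DOX arrays, 8.13 to 9.50 in pluripotent arrays and 8.92 to 9.49 in MEF.

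Fructose 2,6-bisphosphate activates phosphofructokinase, and Pfkfb3, the form with the highest kinase activity, is a known hypoxia target. Under DOX, Pfkfb3 read 9.14 on flox/- day 4, 5.80 on flox/- day 8, 8.60 on WT day 4, 8.44 on WT day 8 and 7.27 on WT day 11. Pfkfb3 signal in pluripotent lines was 6.63 in flox/- iPSC, 6.56 in -/- ESC, 6.75 in WT iPSC and 6.67 in WT ESC, against 8.11 in flox/- MEF, 8.72 in -/- MEF and 8.92 in WT MEF. WT day 11 lay between MEF and the lines, flox/- day 8 below all lines, and the remaining DOX arrays in or near the MEF range. Pfkfb3 was 3.81-fold lower in pluripotent lines (log2 difference -1.93 ± 0.19 SE, limma adjusted p = 1.68e-04). Under DOX, Pfkfb4, a further isoform, read 6.67 on flox/- day 4, 6.38 on flox/- day 8, 6.70 on WT day 4, 9.93 on WT day 8 and 6.69 on WT day 11. Pfkfb4 signal in pluripotent lines was 6.39 in flox/- iPSC, 6.24 in -/- ESC, 6.57 in WT iPSC and 6.66 in WT ESC, against 7.01 in flox/- MEF, 7.32 in -/- MEF and 7.41 in WT MEF. WT day 8 stood alone above every other array, and the other DOX arrays lay below the MEF. Pfkfb4 was 1.72-fold lower in pluripotent lines (log2 difference -0.78 ± 0.15 SE, limma adjusted p = 0.00329). Under DOX its log2 difference from MEF was 0.03 with WT day 8 (limma adjusted p = 0.984) and -0.64 without it (limma adjusted p = 0.0302). Pfkfb2, the heart-type form, overlapped between the states at 7.48 to 8.48 in DOX arrays, 7.79 to 8.04 in pluripotent arrays and 7.75 to 8.42 in MEF.

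In the shared trunk of the pathway Tpi1, which interconverts the triose phosphates, and Pgk1, which makes ATP, were lower in pluripotent lines, and other abundant enzymes were not called. Under DOX, Tpi1 read 12.38 on flox/- day 4, 10.08 on flox/- day 8, 11.95 on WT day 4, 12.13 on WT day 8 and 11.73 on WT day 11. Tpi1 signal in pluripotent lines was 10.74 in flox/- iPSC, 10.68 in -/- ESC, 11.30 in WT iPSC and 11.14 in WT ESC, against 12.07 in flox/- MEF, 12.20 in -/- MEF and 12.23 in WT MEF. The pluripotent arrays all lay below the MEF, and flox/- day 8 lay below the pluripotent arrays. Tpi1 was 2.30-fold lower (log2 difference -1.20 ± 0.18 SE, limma adjusted p = 8.74e-04) and Pgk1 1.73-fold lower (log2 difference -0.79 ± 0.16 SE, limma adjusted p = 0.00352). Pgk1 had 10.90 to 12.57 in DOX arrays, 11.40 to 11.91 in pluripotent arrays and 12.29 to 12.64 in MEF, and its lowest array was again flox/- day 8. Aldolase A (Aldoa) missed the threshold (log2 difference -0.26 ± 0.11 SE, limma adjusted p = 0.0725), with pluripotent arrays at 12.12 to 12.40 and MEF at 12.50 to 12.63. It passed with median centring (limma adjusted p = 0.0448), with no filter (0.0497) and with a trended prior (0.0203). Brain-type Aldoc differed by -0.15 with arrays from 7.32 to 10.34. Phosphoglycerate mutase Pgam1 and pyruvate kinase Pkm stayed high, at 12.04 to 12.17 in pluripotent arrays against 12.02 to 12.24 in MEF for Pgam1 and 11.65 to 11.94 in pluripotent arrays against 11.80 to 12.08 in MEF for Pkm. The 95% interval of the difference was -0.27 to 0.22 for Pgam1 and -0.44 to 0.13 for Pkm.

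Both tissue-restricted enolases were lower. Under DOX, Eno3, the muscle form, read 8.39 on flox/- day 4, 7.85 on flox/- day 8, 8.73 on WT day 4, 11.51 on WT day 8 and 8.79 on WT day 11. Eno3 signal in pluripotent lines was 8.03 in flox/- iPSC, 8.26 in -/- ESC, 8.29 in WT iPSC and 8.54 in WT ESC, against 9.12 in flox/- MEF, 9.56 in -/- MEF and 9.91 in WT MEF. WT day 8 exceeded every MEF array, and the other DOX arrays lay below the MEF. Eno3 was 2.38-fold lower in pluripotent lines (log2 difference -1.25 ± 0.21 SE, limma adjusted p = 0.00154). Under DOX Eno3 differed from MEF by -0.48 with WT day 8 (limma adjusted p = 0.676) and by -1.09 without it (limma adjusted p = 0.0373). Eno2, the neuronal form and a known hypoxia target, had 5.99 to 8.80 in DOX arrays, 6.03 to 7.52 in pluripotent arrays and 7.87 to 9.52 in MEF, and was 3.06-fold lower (log2 difference -1.61 ± 0.47 SE, limma adjusted p = 0.0205). Its lowest arrays were flox/- day 8 at 5.99 and flox/- iPSC at 6.03. Fbp2, which runs the phosphofructokinase step backwards in muscle, lay near or below the array median on all arrays but WT day 8. Under DOX, Fbp2 read 6.04 on flox/- day 4, 6.45 on flox/- day 8, 5.11 on WT day 4, 9.66 on WT day 8 and 5.34 on WT day 11, and the lines spanned 5.14 to 6.12 against 4.87 to 4.99 in MEF. It passed in pluripotent lines (log2 difference 0.72 ± 0.26 SE, limma adjusted p = 0.0441), where its level lay below the array median. The muscle genes Eno3 and Fbp2 were both highest in WT day 8, while the 12 skeletal muscle markers had a mean log2 signal of 5.98 there, against 5.68 to 5.97 in the other DOX arrays and 6.14 to 6.37 in MEF. Their summed linear signal was 1664 in WT day 8, 744.1 to 1014 in the other DOX arrays and 1644 to 2793 in MEF. Their part in the Eno3 and Fbp2 values was not tested.

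The lactate dehydrogenases moved in opposite directions. Under DOX, Ldha, which favours making lactate, read 13.22 on flox/- day 4, 11.05 on flox/- day 8, 12.90 on WT day 4, 12.84 on WT day 8 and 12.79 on WT day 11. Ldha signal in pluripotent lines was 12.06 in flox/- iPSC, 12.38 in -/- ESC, 12.58 in WT iPSC and 11.95 in WT ESC, against 12.97 in flox/- MEF, 13.06 in -/- MEF and 13.12 in WT MEF. Pluripotent arrays lay below all MEF arrays, flox/- day 8 lay lowest, and the other DOX arrays lay just below the MEF, except flox/- day 4 just above them. Ldha was 1.75-fold lower in pluripotent lines (log2 difference -0.81 ± 0.17 SE, limma adjusted p = 0.00478). Under DOX, Ldhb, the heart-type subunit, read 8.75 on flox/- day 4, 9.61 on flox/- day 8, 8.73 on WT day 4, 7.49 on WT day 8 and 10.39 on WT day 11. Ldhb signal in pluripotent lines was 10.29 in flox/- iPSC, 9.08 in -/- ESC, 10.53 in WT iPSC and 10.57 in WT ESC, against 8.37 in flox/- MEF, 7.94 in -/- MEF and 8.76 in WT MEF. The late arrays WT day 11 and flox/- day 8 lay in or near the pluripotent range, the -/- ESC was the lowest line, and WT day 8 was the lowest of all 12 arrays. Ldhb was 3.39-fold higher in pluripotent lines (log2 difference 1.76 ± 0.39 SE, limma adjusted p = 0.00583), and did not pass under DOX (log2 difference 0.64 ± 0.59 SE, limma adjusted p = 0.467).

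Lactate crosses the membrane through monocarboxylate transporters, and these too moved in opposite directions. Under DOX, Slc16a3 (MCT4) read 11.24 on flox/- day 4, 7.07 on flox/- day 8, 10.15 on WT day 4, 10.69 on WT day 8 and 10.32 on WT day 11. Slc16a3 signal in pluripotent lines was 8.71 in flox/- iPSC, 8.99 in -/- ESC, 8.99 in WT iPSC and 8.07 in WT ESC, against 10.54 in flox/- MEF, 10.92 in -/- MEF and 10.95 in WT MEF. All lines lay below all MEF, flox/- day 8 lay below all lines, and flox/- day 4 was the highest of the 12 arrays. Slc16a3 averaged 8.69 ± 0.44 in pluripotent lines (SD, n = 4) and 10.80 ± 0.22 in MEF (SD, n = 3), 4.32-fold lower (log2 difference -2.11 ± 0.25 SE, limma adjusted p = 3.18e-04). Under DOX, Slc16a1 (MCT1) read 11.07 on flox/- day 4, 10.20 on flox/- day 8, 10.09 on WT day 4, 10.29 on WT day 8 and 11.05 on WT day 11. Slc16a1 signal in pluripotent lines was 10.30 in flox/- iPSC, 11.26 in -/- ESC, 10.51 in WT iPSC and 9.49 in WT ESC, against 9.09 in flox/- MEF, 9.17 in -/- MEF and 8.94 in WT MEF. Every DOX and every pluripotent array lay above the MEF, with the reused WT ESC closest to them. Slc16a1 was 2.50-fold higher in pluripotent lines (log2 difference 1.32 ± 0.37 SE, limma adjusted p = 0.0162) and 2.78-fold higher under DOX (log2 difference 1.47 ± 0.28 SE, limma adjusted p = 0.0185).

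Pyruvate enters the citric acid cycle through pyruvate dehydrogenase, which the Pdk kinases switch off. Under DOX, Pdhb, its beta subunit, read 8.45 on flox/- day 4, 8.62 on flox/- day 8, 8.07 on WT day 4, 7.87 on WT day 8 and 8.59 on WT day 11. Pdhb signal in pluripotent lines was 8.71 in flox/- iPSC, 8.66 in -/- ESC, 8.65 in WT iPSC and 8.58 in WT ESC, against 7.58 in flox/- MEF, 7.60 in -/- MEF and 7.63 in WT MEF. No line or DOX array overlapped the MEF. Pdhb was 2.06-fold higher in pluripotent lines (log2 difference 1.04 ± 0.09 SE, limma adjusted p = 1.05e-04) and missed the threshold under DOX (log2 difference 0.71 ± 0.21 SE, limma adjusted p = 0.0554). The DOX difference of Pdhb passed without WT day 8 (0.83, limma adjusted p = 0.0192), without WT day 4 (0.78, limma adjusted p = 0.0477) and in one fit over all 12 arrays (limma adjusted p = 0.0145). Pdha1, the alpha subunit, had the opposite sign (log2 difference -0.42 ± 0.18 SE, limma adjusted p = 0.0816), with 10.13 to 10.78 in pluripotent arrays and 10.78 to 11.04 in MEF. It passed without WT ESC (-0.51, limma adjusted p = 0.0493). Under DOX, Pdk2 read 7.57 on flox/- day 4, 7.68 on flox/- day 8, 8.02 on WT day 4, 8.27 on WT day 8 and 7.57 on WT day 11. Pdk2 signal in pluripotent lines was 7.42 in flox/- iPSC, 7.06 in -/- ESC, 7.35 in WT iPSC and 8.25 in WT ESC, against 8.88 in flox/- MEF, 8.41 in -/- MEF and 8.87 in WT MEF. All DOX arrays and all lines lay below the MEF, and WT ESC was the line closest to it. Pdk2 was 2.30-fold lower in pluripotent lines (log2 difference -1.20 ± 0.29 SE, limma adjusted p = 0.00823) and 1.86-fold lower under DOX (log2 difference -0.90 ± 0.22 SE, limma adjusted p = 0.0370). The DOX call of Pdk2 was lost without flox/- day 8 (-0.86, limma adjusted p = 0.0586). Pdk3 was 1.94-fold lower in the lines (log2 difference -0.95 ± 0.22 SE, limma adjusted p = 0.00679), with 9.17 to 11.01 in DOX arrays, 9.50 to 10.46 in pluripotent arrays and 10.85 to 11.10 in MEF. Pdk1, a hypoxia target, and Pdk4, a fasting-induced kinase, overlapped between lines and MEF and differed by 0.16 ± 0.25 SE for Pdk1 and 0.09 ± 0.27 SE for Pdk4. Pdk4 ranged over 3.70 log2 units, with WT day 8 lowest at 5.87 and WT day 11 highest at 9.57.

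**Figure D2:**
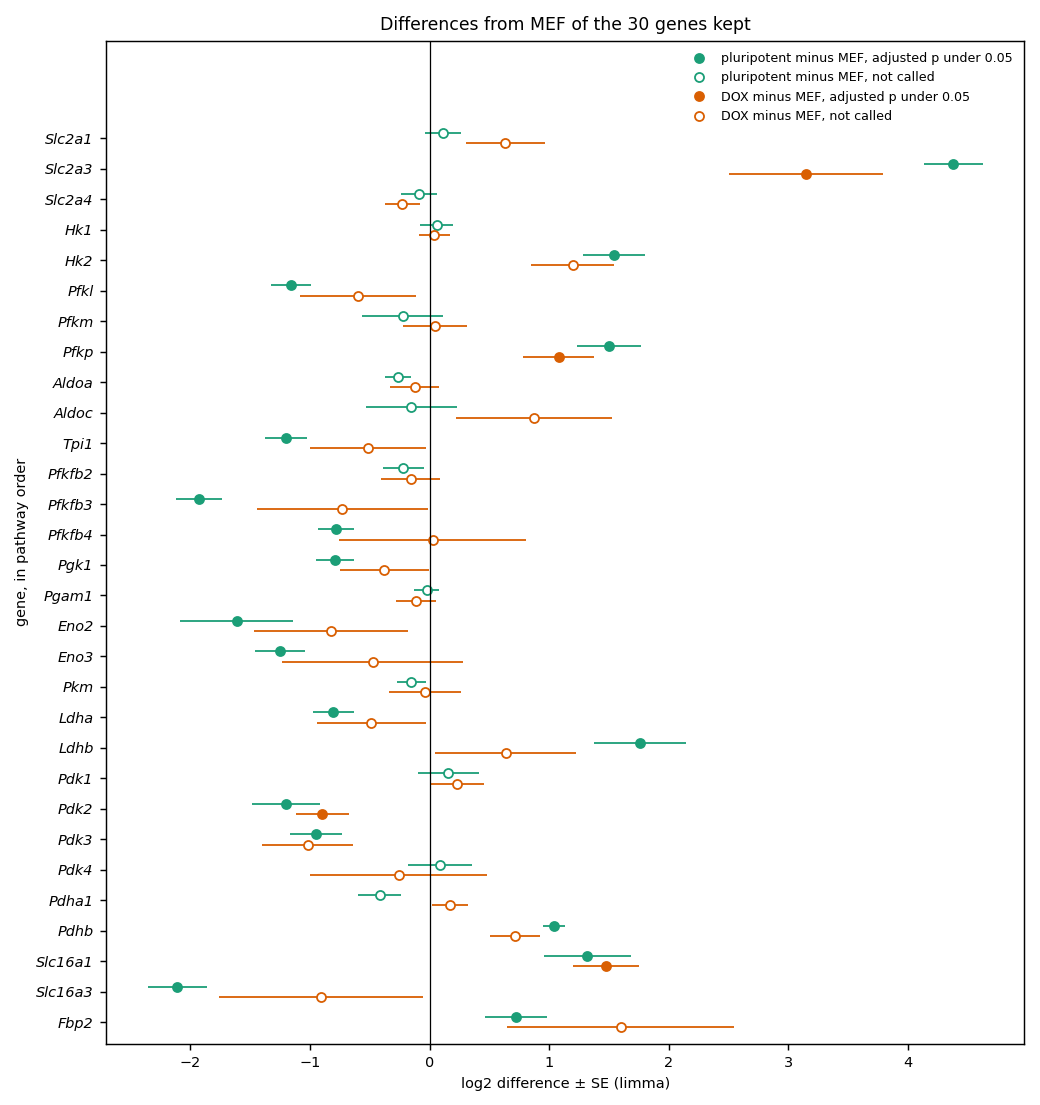
Log2 difference (x axis) from MEF for the 30 members tested, in pathway order, with pluripotent minus MEF above DOX minus MEF for each gene, and the limma SE as error bar. Filled points passed an adjusted p of 0.05: 18 for pluripotent lines and 4 for DOX. For Slc16a3 the DOX bar is the wider one (0.85 SE against 0.25 SE).

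Since probe sets differ in affinity, paralogs were compared through the log2 difference of a pair within each array and how that difference changed between states. Of 20 pairs, 17 were measured, and 13 had both members above the filter. Between pluripotent lines and MEF 12 of the 17 pairs changed, 7 toward the first-named gene and 5 away from it, and 10 did not overlap. Of single genes 60.0% were called and 63.2% did not overlap. Single genes are not a like background for pairs, some of which share a gene. The 3 largest changes were the glucose transporters, the lactate transporters and the phosphofructokinase subunits.

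The pair difference Slc2a3 minus Slc2a1 was -2.14 on flox/- day 4, 0.65 on flox/- day 8, -1.62 on WT day 4, -2.26 on WT day 8 and -0.16 on WT day 11. In lines it was 0.41 in flox/- iPSC, 0.90 in -/- ESC, 0.50 in WT iPSC and 0.79 in WT ESC, against -3.62 in flox/- MEF, -4.08 in -/- MEF and -3.15 in WT MEF. All lines and all DOX arrays lay above the MEF, with flox/- day 8 in the range of the lines, and the change between lines and MEF was 4.27 ± 0.23 SE, limma adjusted p = 1.88e-05. Under DOX it was 2.51 ± 0.69 SE, limma adjusted p = 0.04997, and this call was lost in 7 of the 8 fits that left out an array. The difference Slc16a3 minus Slc16a1 was 0.17 on flox/- day 4, -3.13 on flox/- day 8, 0.06 on WT day 4, 0.40 on WT day 8 and -0.73 on WT day 11. In the lines it was -1.58 in flox/- iPSC, -2.26 in -/- ESC, -1.52 in WT iPSC and -1.42 in WT ESC, against 1.45 in flox/- MEF, 1.74 in -/- MEF and 2.01 in WT MEF. All lines and all DOX arrays lay below the MEF, with flox/- day 8 below the lines and the other DOX arrays between lines and MEF. The change between lines and MEF was -3.43 ± 0.23 SE, limma adjusted p = 3.81e-05. Under DOX it was -2.38 ± 0.76 SE, limma adjusted p = 0.0708, and the groups did not overlap. That DOX change passed without WT day 8 (-2.64, limma adjusted p = 0.0488) and without flox/- day 8 (-1.76, limma adjusted p = 0.0211). The difference Pfkp minus Pfkl was 0.42 on flox/- day 4, 2.60 on flox/- day 8, -0.24 on WT day 4, 0.60 on WT day 8 and 0.35 on WT day 11. Among lines it was 2.28 in flox/- iPSC, 2.08 in -/- ESC, 1.58 in WT iPSC and 0.98 in WT ESC, against -0.84 in flox/- MEF, -1.11 in -/- MEF and -0.85 in WT MEF. Every line and every DOX array lay above the MEF, and the change between lines and MEF was 2.66 ± 0.30 SE, limma adjusted p = 2.85e-04. Under DOX the change was 1.675 ± 0.57 SE, limma adjusted p = 0.0825, and it passed without flox/- day 8 (1.21, limma adjusted p = 0.0262).

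The difference Ldhb minus Ldha was -4.47 on flox/- day 4, -1.44 on flox/- day 8, -4.17 on WT day 4, -5.35 on WT day 8 and -2.40 on WT day 11. For lines it was -1.76 in flox/- iPSC, -3.30 in -/- ESC, -2.05 in WT iPSC and -1.38 in WT ESC, against -4.60 in flox/- MEF, -5.12 in -/- MEF and -4.36 in WT MEF. The late arrays WT day 11 and flox/- day 8 lay in the range of the lines, the day 4 arrays in or just above that of the MEF, and WT day 8 below the MEF. The change between lines and MEF was 2.57 ± 0.44 SE, limma adjusted p = 0.00186. Hk2 minus Hk1 changed by 1.48 ± 0.24 SE, limma adjusted p = 0.00145, and by 1.94 (limma adjusted p = 9.23e-04) with the RefSeq-linked Hk1 probe set, with which the DOX change of 1.59 also passed (limma adjusted p = 0.0287). Pdk3 minus Pdk1 changed by -1.11 ± 0.13 SE, limma adjusted p = 3.19e-04 and Pfkfb3 minus Pfkfb4 by -1.15 ± 0.14 SE, limma adjusted p = 3.63e-04. These 7 pairs were called in every fit that left out an array, though Pfkfb3 minus Pfkfb4 was lost in one fit over all 12 arrays (limma adjusted p = 0.236). The other called pairs were each lost in at least 1 such fit: Pfkm minus Pfkl (0.94 ± 0.33 SE, limma adjusted p = 0.0395) in 6 of 7, Pdk2 minus Pdk1 (-1.36 ± 0.47 SE, limma adjusted p = 0.0390) in 6 of 7, and the pairs with a dim member, Hk3 minus Hk1 in 5, Fbp2 minus Fbp1 in 4 and Pklr minus Pkm in 1. With the RefSeq-linked Hk1 probe set Hk3 minus Hk1 changed by -0.07 (limma adjusted p = 0.684) and was not called, against -0.52 with the other probe set. Pairs not called were Slc2a4 with Slc2a1, Pfkfb2 with Pfkfb4, Aldoc with Aldoa, Pgam2 with Pgam1 and Pdk4 with Pdk1.

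**Figure D3:**
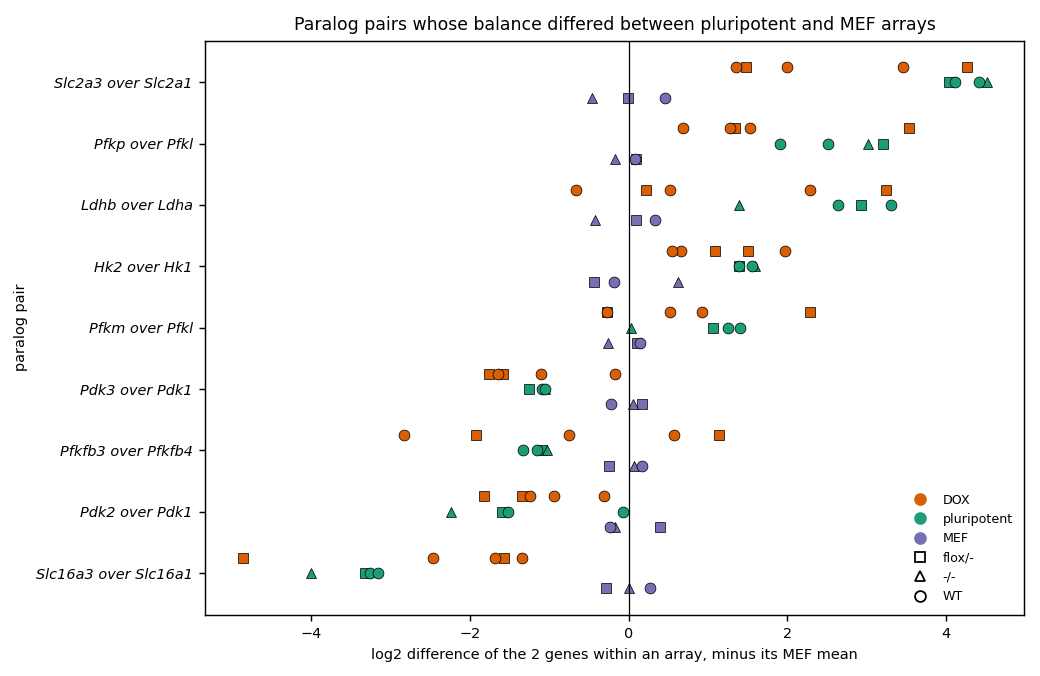
Log2 difference of 2 paralogs within an array, minus the mean of that difference in MEF (x axis), for the 9 pairs called between pluripotent lines and MEF with both members above the filter. Each point is an array, coloured by state and shaped by genotype. The flox/- day 8 array is the DOX point farthest from MEF for Slc16a3 over Slc16a1, at -3.13 against 1.45 to 2.01 in MEF before the subtraction.

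Cells under DOX, taken as a state, differed from MEF in few members. Slc2a3, Slc16a1 and Pfkp were higher and Pdk2 was lower, with the values given above. These 4 of 30 compare with 13.6% of all genes, 5.88% higher and 7.67% lower, and the groups of 6 members did not overlap, against 30.6% of all genes. These were Slc2a3, Hk2, Pdk2, Pdhb, Slc16a1 and Fbp2. Fbp2 had passed the filter only through 2 DOX arrays, which favoured a higher DOX level, so its separation is not read as a result. Days and genotypes were pooled here: the median SD over the members tested was 0.63 in DOX arrays, 0.27 in pluripotent arrays and 0.22 in MEF. With genotype as a term 0 members were called, and limma gave an adjusted p of 0.0963 for Slc2a3 (2.98), 0.0695 for Slc16a1 (1.54), 0.0661 for Pdk2 (-1.07) and 0.141 for Pfkp (1.04). None of the 4 calls held in every fit that left out an array. Leaving out any 1 MEF array left 0 members called. Of all 13044 genes, 150 were then called without flox/- MEF, 402 without -/- MEF and 414 without WT MEF. The limma adjusted p of Slc2a3 was then 0.111 without flox/- MEF, 0.0820 without -/- MEF and 0.0579 without WT MEF. That of Slc16a1 in limma was 0.0905 without flox/- MEF, 0.0609 without -/- MEF and 0.0724 without WT MEF. Without WT day 4, 7 members were called. Over the 8 fits that left out an array, calls among all genes ran from 150 to 3165. Pfkp was lost in 7 and Pdk2 in 6 of the 8 fits.

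Against the pluripotent lines, 0 members were called for DOX-treated cells, and 1 of 13044 genes (0.00767%). At an unadjusted p under 0.05 there were 2 of 30 members, Pdha1 and Slc2a3, and 15.7% of all genes. Pdha1 was the member whose groups did not overlap, against 4.88% of genes: it had 11.13 on flox/- day 4, 10.87 on flox/- day 8, 11.31 on WT day 4, 11.01 on WT day 8 and 11.20 on WT day 11. The lines had 10.41 in flox/- iPSC, 10.13 in -/- ESC, 10.74 in WT iPSC and 10.78 in WT ESC. All DOX arrays lay above all lines (log2 difference 0.59 ± 0.17 SE, limma adjusted p = 0.261). Without flox/- day 8 the same comparison called 7 members, all higher in the remaining 4 DOX arrays, and 10.1% of all genes. Their log2 differences were 1.91 for Slc16a3, 1.71 for Pfkfb3, 1.46 for Aldoc, 1.08 for Tpi1, 0.96 for Pfkl, 0.70 for Pgk1 and 0.70 for Ldha, with limma adjusted p from 0.0113 (Slc16a3) to 0.0487 (Ldha). In that fit 5 pairs were called, Slc16a3 with Slc16a1 by 1.67 and Slc2a3 with Slc2a1 by -2.19 among them. Leaving out any other array called 0 members.

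Slc2a3, Slc16a1 and Hk2 lay above MEF by day 4 in both genotypes, while Ldha and Tpi1 lay near it until late in WT cells. Values here are log2 differences of 1 array from the MEF of its genotype, with no test. Slc2a3 was already 2.69 above MEF in flox/- day 4 and 1.28 in WT day 4, and reached 4.72 in flox/- day 8 and 3.71 in WT day 11, the level of iPSC (4.57 in flox/-, 3.70 in WT). Slc16a1 stood 1.98 above MEF in flox/- day 4 and 1.15 in WT day 4. Hk2 stood 1.83 above in flox/- day 4 and 0.92 in WT day 4. Not every gain was early: Pfkp was at 1.66 in flox/- day 4 and -0.03 in WT day 4. Of the members lower in the lines, Slc16a3, Ldha and Tpi1 lay within 1 log2 unit of MEF on day 4, as Hk2 did in WT. Slc16a3 was 0.70 in flox/- day 4 and -0.80 in WT day 4, Ldha 0.25 and -0.22, and Tpi1 0.30 and -0.27 in the same arrays. Some lower members had already fallen in these arrays, Pdk2 to -1.31 and -0.85 and Eno3 to -0.74 and -1.18. The rest were -0.35 and -0.71 for Pfkfb4, -0.20 and -0.73 for Eno2, and -0.84 and -0.09 for Pdk3. Pfkl was 0.41 and -0.64, Pfkfb3 1.04 and -0.32, and Pgk1 0.28 and -0.23. On WT day 11 the differences were -0.62 for Slc16a3, -0.33 for Ldha, -0.50 for Tpi1 and -0.31 for Pgk1. In WT iPSC they were at -1.95 for Slc16a3, -0.54 for Ldha, -0.92 for Tpi1 and -0.73 for Pgk1. Other members lower in the lines had already fallen further on WT day 11: Pfkfb3 to -1.65, Eno2 to -1.49, Pdk2 to -1.30, Pdk3 to -1.17 and Eno3 to -1.12. Their WT iPSC values were -2.17 for Pfkfb3, -2.30 for Eno2, -1.52 for Pdk2, -1.10 for Pdk3 and -1.62 for Eno3. Pfkfb4 was at -0.72 on WT day 11 and -0.84 in WT iPSC, and Pfkl at -0.49 and -1.28. Ldhb, a late gain, was at -0.03 on WT day 4 and 1.63 on WT day 11.

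**Figure D4:**
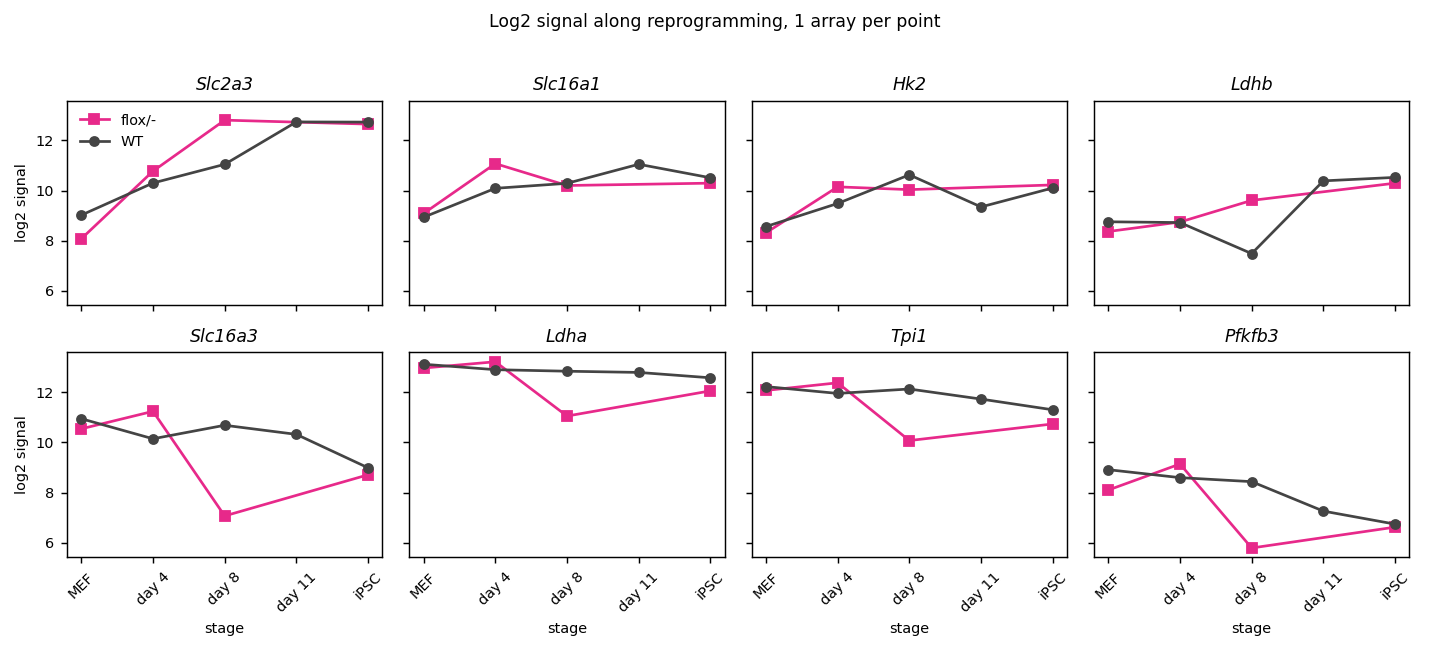
Log2 signal (y axis) of 8 members by stage (x axis) in flox/- (squares) and WT (circles) cells, 1 array per point; flox/- has no day 11. In the upper row Slc2a3, Slc16a1 and Hk2 are above MEF by day 4, and in the lower row Slc16a3, Ldha, Tpi1 and Pfkfb3 are lowest in flox/- day 8, where Ldha is at 11.05 against 12.84 in WT day 8.

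The flox/- day 8 array was the lowest of all 12 arrays for 12 of the 30 members tested, against 13.7% of all genes, and the highest for none, against 8.70%. The 12 were Pfkl, Aldoa, Aldoc, Tpi1, Pfkfb3, Pgk1, Pgam1, Eno2, Eno3, Pkm, Ldha and Slc16a3, which span the pathway from phosphofructokinase to lactate export. Compared with the flox/- MEF, 10 members were at least 2-fold lower (20.9% of genes) and 7 at least 2-fold higher (15.8%). Slc16a3 stood at -3.47, Eno2 at -2.55, Pfkfb3 at -2.31, Pfkl at -1.93 and Ldha at -1.91 on the log2 scale. In flox/- iPSC they were at -1.83 for Slc16a3, -1.48 for Pfkfb3, -1.26 for Pfkl and -0.91 for Ldha, while Eno2 was nearly the same at -2.51. In that array the pluripotency markers averaged 11.07, the fibroblast markers 6.81, the lowest of the 12 arrays, and 15 hypoxia-response genes outside glycolysis 7.82, also the lowest. Their part in the member values was not tested. The flox/- day 4 array was the opposite, the highest of 12 arrays for 8 members (11.9% of genes): Aldoa, Tpi1, Pfkfb3, Pgam1, Pkm, Ldha, Pdk1 and Slc16a3. The reused WT day 8 array was highest for 6 members (16.4% of genes), Slc2a1, Aldoc, Pfkfb2, Pfkfb4, Eno3 and Fbp2, and lowest for 3 (11.6%), Ldhb, Pdk3 and Pdk4. Its hypoxia-response genes averaged 9.07, within the 7.82 to 9.51 of the DOX arrays.

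**Figure D5:**
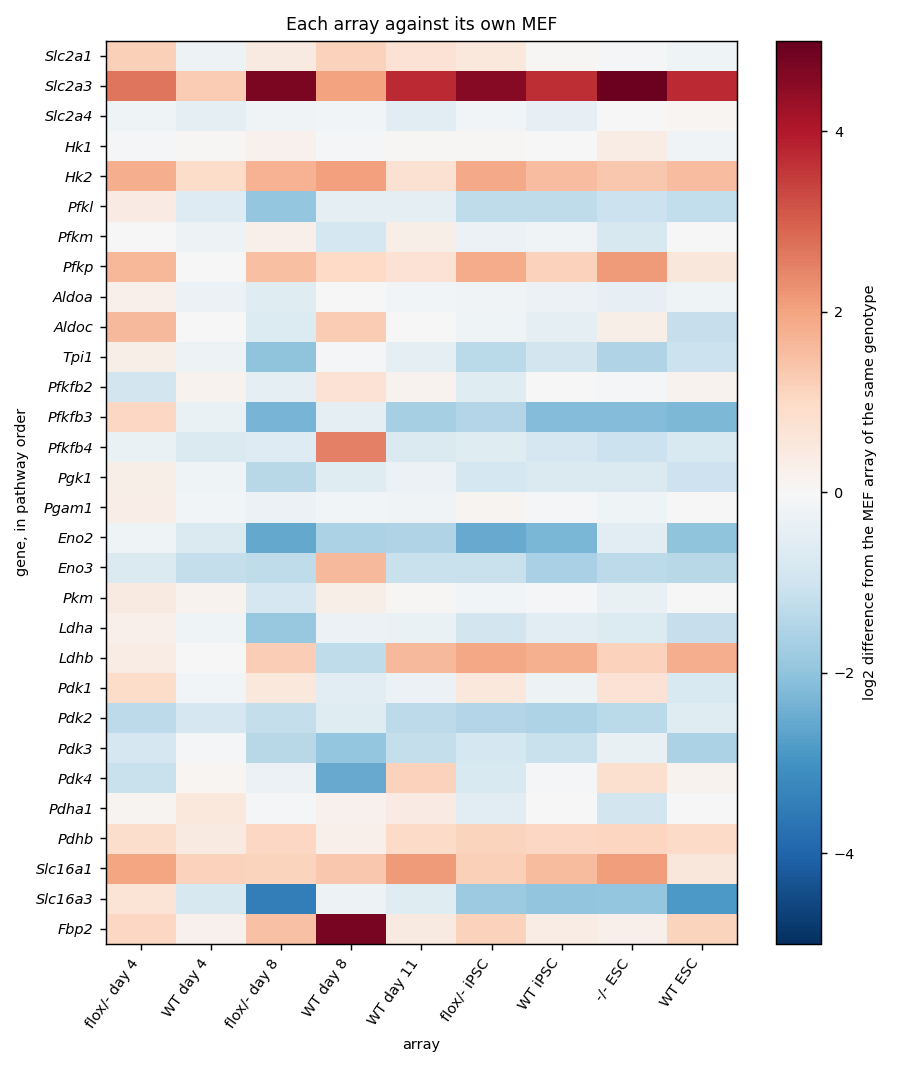
Log2 difference (colour) of each array from the MEF array of its genotype for the 30 members tested, in pathway order from uptake to export; red is higher and blue lower than MEF. The flox/- day 8 column is blue in Pfkl, Tpi1, Pfkfb3, Eno2, Ldha and Slc16a3 (-3.47), and WT day 8 is red in Pfkfb4 (2.52), Eno3 (1.60) and Fbp2 (4.75).

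Over the stages that both genotypes share, no member passed the test between flox/- and WT cells. With stage as a block, limma called 0 of 30 members and 0% of all genes. At an unadjusted p under 0.05 there was 1 member, Eno2, and 6.53% of all genes. Eno2 was lower in flox/- than in WT at each of the 4 stages, by log2 differences of -0.99 in MEF, -0.46 on day 4, -1.94 on day 8 and -1.19 in iPSC (log2 difference -1.14 ± 0.27 SE, limma adjusted p = 0.693). Single stages differed in size, with 1 array per genotype and no test. On day 8, 13 members were at least 2-fold lower in flox/- than in WT (18.7% of genes) and 3 at least 2-fold higher (13.1%). Slc16a3 differed by -3.61, Eno3 by -3.66, Pfkfb4 by -3.55, Fbp2 by -3.20 and Aldoc by -3.01, while Pdk4, Ldhb and Slc2a3 were higher by 2.47 for Pdk4, 2.12 for Ldhb and 1.76 for Slc2a3. That stage sets the flox/- array against the array of the earlier series, so genotype, series and the disputed day cannot be told apart there. On day 4, 2 members were at least 2-fold higher and 0 lower in flox/- (4.82% and 8.04% of genes). In MEF there were 0 higher and 1 lower (2.33% and 1.79%), and in iPSC also 0 higher and 1 lower (1.88% and 3.20%).

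For -/- cells, which have no DOX array, limma with state and genotype as terms called 0 of 30 members and 0% of all genes over 7 arrays. At an unadjusted p under 0.05 there were 4 members and 9.53% of all genes. Ldhb read 9.08 in -/- ESC, against 10.57 in WT ESC and 10.53 in WT iPSC, and 7.94 in -/- MEF, against 8.76 in WT MEF (log2 difference -1.17 ± 0.21 SE, limma adjusted p = 0.476). Pfkm read 8.13 in -/- ESC, against 9.50 in WT ESC and 9.31 in WT iPSC (log2 difference -0.97 ± 0.20 SE, limma adjusted p = 0.476). The -/- arrays were the lower ones for Ldhb and Pfkm within each state. Aldoc differed by -0.92 and Hk2 by 0.65 (limma adjusted p = 0.518 for Aldoc and 0.485 for Hk2).

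Of the pathways that branch from glycolysis, most glycogen genes were lower and most serine and glycine genes higher in pluripotent lines than in MEF. Of 8 glycogen genes tested, 7 were lower and 0 higher (median log2 difference -1.07), where 29.9% of all genes were lower. Glycogenin Gyg, which primes glycogen, was 4.69-fold lower (log2 difference -2.23 ± 0.28 SE, limma adjusted p = 4.09e-04), the phosphorylase Pygl 4.33-fold lower (log2 difference -2.11 ± 0.29 SE, limma adjusted p = 7.07e-04) and the phosphoglucomutase Pgm1 2.56-fold lower (log2 difference -1.36 ± 0.17 SE, limma adjusted p = 4.55e-04). Of 6 genes of the serine and glycine branch, which draws on phosphoglycerate, 4 were higher and 0 lower (median 0.82), where 30.1% of all genes were higher. Gldc, of the glycine cleavage system, was 17.4-fold higher (log2 difference 4.12 ± 0.21 SE, limma adjusted p = 1.37e-05). Its arrays ranged over 9.42 to 10.25 in the lines, against 5.46 to 5.66 in MEF. The MEF values lay below the array median, so Gldc passed the filter only through arrays outside MEF, which favoured a higher level there. The hydroxymethyltransferase Shmt1 was 6.73-fold higher (log2 difference 2.75 ± 0.19 SE, limma adjusted p = 3.87e-05) and the phosphatase Psph 1.82-fold higher (log2 difference 0.86 ± 0.19 SE, limma adjusted p = 0.00534). Under DOX 0 of these 6 were called, against 13.6% of all genes, and 5 of the 6 differences from MEF were positive. The DOX difference was 2.79 for Gldc (limma adjusted p = 0.116) and 2.06 for Shmt1 (limma adjusted p = 0.0614). Of 15 hypoxia-response genes outside glycolysis, 10 were lower and 1 higher (median -1.28), where 29.9% of all genes were lower and 30.1% higher. Some members known as hypoxia targets, not a complete list, went both ways. Slc16a3, Pfkfb3, Eno2, Ldha and Pgk1 were lower, Slc2a3 and Hk2 were higher, and Slc2a1 and Pdk1 were not called. Adm, the vasodilator adrenomedullin, was 16.8-fold lower (log2 difference -4.07 ± 0.29 SE, limma adjusted p = 4.32e-05), the prolyl hydroxylase subunit P4ha2 lower (log2 difference -3.33 ± 0.32 SE, limma adjusted p = 1.34e-04) and the collagen cross-linking Lox 14.4-fold lower (log2 difference -3.85 ± 1.28 SE, limma adjusted p = 0.0333). Lox and P4ha2 are also genes of matrix-making fibroblasts. The 12 fibroblast markers were all lower in the lines, their summed linear signal being 7111 to 14240 in pluripotent arrays and 49860 to 51920 in MEF, and 11 of 12 macrophage markers were lower, with sums of 1234 to 2773 in pluripotent arrays and 2244 to 18820 in MEF. The part of these cell types in the member differences was not tested. The hypoxia list had 8.08 to 8.59 as its mean in pluripotent arrays, against 9.74 to 10.37 in MEF.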

How the data were processed

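RNA was extracted with TRIzol and biotin-labelled, per the labels' protocols, and 12 Affymetrix arrays were deposited as 1 table of log2 values (3.11 to 13.99) for 35512 probe sets. How the authors summarised and normalized these log2 values is not given in the sources used here. A 3′ IVT kit is named in the labels' protocols, while the annotation is that of a whole-transcript array. Deposited medians differed by 0.122, and quantile normalization was applied. Probe sets with 1 symbol (21789) were kept, the highest mean probe set per gene was taken (19938 genes), and genes above the array median on at least 1 array were tested (13044).

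Each comparison was fitted with limma 3.58.1 in R 4.3.3 (lmFit, eBayes), with Benjamini-Hochberg adjustment over all genes and a call at an adjusted p under 0.05. State comparisons used only the arrays of both states, with genotypes and days standing as replicates; flox/- against WT used 8 arrays with stage as a block; -/- against WT used 7 arrays with state and genotype as terms. Differences of 17 paralog pairs were tested in the same fits. The fits were checked on simulated data with the smaller of the pluripotent and MEF spreads of each gene. The wider spread of DOX arrays was not simulated. Arrays carry no depth, and their number limits the precision.

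Any member could be named. Members called between lines and MEF, and pairs called there with both members above the filter, have full statistics. Other members have ranges or differences, and other pairs are given in brief. From each other list up to 3 genes with the largest difference among those called between pluripotent lines and MEF are named. Members and lists were chosen with earlier results of these data known. Marker lists of muscle, neural, adipocyte and hepatocyte cells were also read: of the genes tested, 1 muscle marker was higher and 1 lower of 6 in pluripotent lines than in MEF, 2 and 2 of 5 neural, 0 and 3 of 3 adipocyte, and 1 and 0 of 2 hepatocyte markers. Alternatives covered normalization, filters, probe set choice, the earlier-series arrays, the prior, a single fit, genotype terms and leaving out each array. Promoter sequences are those of RefSeq (GRCm38.p6).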

Additional observations from a re-analysis of the deposited data

Results flagged for a closer look

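Of 60 groups of 4 or 5 arrays, 9 (15.0%) held an array far from the rest, against 7.62% of such groups over all genes; for independent values chance gives about 1 in 20. The members share their arrays, and 5 of the 9 come from flox/- day 8. Among DOX arrays flox/- day 8 stood below the others by a gap that took up most of the range, at 8.30 for Pfkl (next 10.03), 10.08 for Tpi1 (next 11.73), 10.97 for Pkm (next 11.99), 11.05 for Ldha (next 12.79) and 7.07 for Slc16a3 (next 10.15). WT day 8, the reused array with conflicting day labels, stood above the other DOX arrays at 9.93 for Pfkfb4 (next 6.70) and 11.51 for Eno3 (next 8.79). Among pluripotent arrays flox/- iPSC was low at 8.96 for Pfkl (next 9.39) and WT iPSC high at 8.66 for Aldoc (next 7.95).

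In 2 of 30 members, against 3.05% of all genes, every flox/- DOX array moved one way from its MEF and every WT DOX array the other way. For Pfkfb2 the mean DOX minus MEF difference was -0.70 in flox/- and 0.35 in WT, a difference of -1.05 on the log2 scale. For Pdk1 it was 0.72 in flox/- and -0.32 in WT, a difference of 1.04. Each genotype has a single MEF array as its baseline, and these differed, flox/- minus WT, by 0.66 for Pfkfb2 and -0.63 for Pdk1. Neither difference between genotypes was tested.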

How the results depend on the processing

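Between pluripotent lines and MEF, 18 members were called, and 15 to 18 when an array was left out, but 11 in one fit over all 12 arrays, whose pooled spread includes the DOX days. The 7 lost there were Eno2, Eno3, Fbp2, Ldha, Pdk3, Pfkfb4 and Pgk1, with limma adjusted p from 0.0515 (Pdk3) to 0.516 (Fbp2). Between DOX and MEF, 4 members were called, and 0 with genotype as a term and 0 to 7 when an array was left out (7 without WT day 4). The 1768 genes called there became 150 without flox/- MEF, 3165 without WT day 8, 508 with genotype as a term and 3561 in one fit over all arrays. The single pair called there became 2 with the values as deposited, 0 with no filter, 2 with the mean of all probe sets, 2 with RefSeq-linked probe sets (added after seeing the data), 3 without the earlier series, 5 in one fit, 0 with genotype as a term and 0 to 3 when an array was left out. For DOX against pluripotent, 0 members and 0 pairs became up to 7 members and 5 pairs, both without flox/- day 8. Pairs between lines and MEF went from 12 to a lowest of 8 and a highest of 11 when an array was left out, and to 8 in one fit, where Pfkfb3 with Pfkfb4, Pfkm with Pfkl, Pklr with Pkm and Fbp2 with Fbp1 were lost. Pdk2 with Pdk1 passed under DOX without WT day 8 (-1.33). For flox/- and for -/- against WT, 0 members were called under every alternative run. Signs turned for Hk1 between lines and MEF (-0.39 with the RefSeq-linked probe set) and for Pfkfb4 under DOX (-0.64 to 0.25 when an array was left out, -0.64 without WT day 8, which is also the fit without the earlier series); for the remainder the cause was not tested. The labels carry no replicate numbers, so arrays were matched only by labelled stage or genotype, as blocks or terms. Without the stage block flox/- against WT again called 0 members. With 3 to 5 arrays a state, dim genes such as Slc2a4 and Fbp2 sit near background, which limits their differences.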

Other observations

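In further branches of glucose use, pluripotent lines differed from MEF in both directions. Of 7 pentose phosphate genes tested, 3 were higher and 1 lower in the lines (60.0% of all genes were called). Taldo1, the transaldolase, was 1.96-fold higher (log2 difference 0.97 ± 0.13 SE, limma adjusted p = 5.93e-04) and the epimerase Rpe 1.54-fold higher (log2 difference 0.63 ± 0.19 SE, limma adjusted p = 0.0239), while H6pd, the hexose 6-phosphate dehydrogenase of the endoplasmic reticulum, was 2.38-fold lower (log2 difference -1.25 ± 0.13 SE, limma adjusted p = 1.76e-04). Of 8 partners of pyruvate dehydrogenase, 3 were higher and 2 lower. The phosphatases that reactivate the complex split: Pdp1 was 4.10-fold lower (log2 difference -2.04 ± 0.21 SE, limma adjusted p = 1.82e-04) and Pdp2 2.40-fold higher (log2 difference 1.26 ± 0.22 SE, limma adjusted p = 0.00208), and the structural subunit Pdhx was 1.62-fold higher (log2 difference 0.70 ± 0.15 SE, limma adjusted p = 0.00517). Of 4 gluconeogenesis genes, 2 were lower, G6pc3 by 1.72-fold (log2 difference -0.78 ± 0.20 SE, limma adjusted p = 0.0126) and the glucose 6-phosphate transporter Slc37a4 by 1.47-fold (log2 difference -0.55 ± 0.14 SE, limma adjusted p = 0.0100).

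Of 7 hexosamine genes, 1 was higher and 2 were lower, where 30.1% of all genes were higher and 29.9% lower: the entry enzyme Gfpt1 was 1.87-fold lower (log2 difference -0.90 ± 0.26 SE, limma adjusted p = 0.0191), Uap1 1.75-fold lower (log2 difference -0.81 ± 0.18 SE, limma adjusted p = 0.00609) and the O-GlcNAc transferase Ogt 1.34-fold higher (log2 difference 0.43 ± 0.15 SE, limma adjusted p = 0.0403). Of 18 other paralogs and side enzymes, 5 were higher and 6 lower (61.1% called, near the 60.0% of all genes), with Slc16a7, a further monocarboxylate transporter, 9.50-fold lower (log2 difference -3.25 ± 0.16 SE, limma adjusted p = 1.38e-05). The sugar transporters Slc2a10 and Slc2a13 were 6.30-fold (log2 difference -2.66 ± 0.29 SE, limma adjusted p = 2.52e-04) and 4.08-fold lower (log2 difference -2.03 ± 0.23 SE, limma adjusted p = 2.79e-04). Of 14 regulators of glycolytic genes, 5 were higher and 5 lower, and the 3 with the largest differences were Mycn, 11.1-fold higher (log2 difference 3.47 ± 0.30 SE, limma adjusted p = 9.43e-05), Lin28a, 6.86-fold higher (log2 difference 2.78 ± 0.45 SE, limma adjusted p = 0.00145), and Lin28b, 3.43-fold higher (log2 difference 1.78 ± 0.29 SE, limma adjusted p = 0.00142). In MEF these 3 averaged 6.02 for Mycn, 5.86 for Lin28a and 5.15 for Lin28b, below the array median of 6.31. They passed the filter only through arrays outside MEF, which favoured a higher level there.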
